A study of Mus musculus with 21 samples.

Results

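The alveolar fibroblast identity genes described here are 7 genes that mark the resting fibroblast of the mouse alveolar wall and its lipid-laden form, the lipofibroblast: Inmt, Tcf21, Pdgfra, Npnt, Limch1, Gdf10 and Fgfr4. They were picked by symbol as known markers, with earlier results of these data already known, so the set is not independent of these lungs. All 7 were among the 23238 gene symbols of the count tables, and all 7 passed the low-count filter that left 14727 genes for testing. The lungs came from 21 C57BL/6 mice, 3 in each of 7 groups, with 1 library per animal and the animals numbered separately. Each mouse received 50 µL into the trachea once a day for 14 days and was killed on day 15, and RNA was taken from lung tissue after the airways had been lavaged. The groups were propylene glycol (PG, a carrier liquid of e-cigarettes) at 826 and at 1100 with saline as control, and vitamin E acetate (VEA, an oily diluent of vaping liquids) at 3.12, 6.25 and 12.5 with 10% ethanol as control. The sample labels write these doses in mg/kg and the series description writes the same numbers in mg/mL, so the numbers are used without a unit. The labels call 10% ethanol the VEA control and do not say what VEA was dissolved in. The animals carry no named allele or transgene in the labels, and their age and sex are not given there.

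Alveolar fibroblasts lie in the walls between air spaces, next to type II epithelial cells and capillaries, where they keep up the interstitial matrix and, in rodents, store neutral lipid. Inmt encodes a methyltransferase that acts on indole amines, Tcf21 a basic helix-loop-helix transcription factor of the lung mesenchyme, and Pdgfra and Fgfr4 receptor tyrosine kinases for platelet-derived and fibroblast growth factors. Npnt encodes nephronectin, a matrix ligand of the integrin that contains Itga8, Limch1 a protein that binds actin and non-muscle myosin, and Gdf10 a secreted ligand of the TGF-beta family. Several of them are known outside this cell: Npnt and Limch1 in alveolar type I cells, Limch1 in endothelium, and Pdgfra in myofibroblasts and adventitial fibroblasts.

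The libraries held 8778028 to 11783151 counts, with 14843 to 15992 genes detected, 14.6% to 26.1% of counts on the ribosomal precursor Rn45s and 4.06% to 13.8% on haemoglobin genes. The haemoglobin share moved with the doses: it was 5.23% to 9.06% in PG 826, 4.54% to 5.53% in PG 1100 and 6.49% to 13.8% in saline lungs, and 8.49% to 10.5% in ethanol lungs, 5.85% to 7.85% at VEA 3.12, 5.76% to 7.33% at 6.25 and 4.06% to 5.13% at 12.5. The PG 1100 and all VEA groups lay below their controls without overlap. With Rn45s and the haemoglobin genes left out of the tables, the number of members called was the same in each comparison. Lung identity was checked by the surfactant gene Sftpc, the club cell gene Scgb1a1 and the type I cell gene Ager, which had counts in every library. Levels are counts scaled to a common library total adjusted by TMM factors (CPM), so a value is read between lungs for 1 gene and not between genes. Changes are log2 fold changes with their SE from edgeR's quasi-likelihood test, and a gene was called when its Benjamini-Hochberg adjusted p over the 14727 genes was below 0.05. In whole lung, fewer fibroblasts and less RNA per fibroblast cannot be told apart.

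By calls, the members did not move as a block. Inmt fell at PG 1100 and at every VEA dose, to between 0.469 and 0.615 of its control level, Pdgfra fell at VEA 6.25 and 12.5, and Limch1 fell at VEA 12.5. Tcf21, Npnt, Gdf10 and Fgfr4 passed the test in no comparison. No member was called higher in any comparison. By direction, called or not, all 7 were lower in PG 1100 against PG 826 (median log2 fold change -0.41) and 6 of 7 at VEA 12.5 (median -0.43). At PG 1100 against saline, VEA 3.12 and VEA 6.25 it was 5 of 7, and at PG 826 it was 1 of 7.

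The start regions of Inmt, Pdgfra and Tcf21 are shown because the first pair fell in the same lungs while Tcf21, itself a factor that binds the E-box CANNTG, was not called. Each run is 300 bases of RefSeq on GRCm38.p6, from 250 bases before the annotated start to 50 after it, in the direction of the gene, with every CANNTG in capitals.
Inmt, chr6:55174941-55175240, minus strand: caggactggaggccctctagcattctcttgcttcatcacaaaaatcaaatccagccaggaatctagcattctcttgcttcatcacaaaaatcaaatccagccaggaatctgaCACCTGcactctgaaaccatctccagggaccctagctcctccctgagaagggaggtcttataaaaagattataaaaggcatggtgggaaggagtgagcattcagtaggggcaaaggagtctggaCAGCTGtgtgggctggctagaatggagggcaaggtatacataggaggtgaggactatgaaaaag
Pdgfra, chr5:75152001-75152300, plus strand: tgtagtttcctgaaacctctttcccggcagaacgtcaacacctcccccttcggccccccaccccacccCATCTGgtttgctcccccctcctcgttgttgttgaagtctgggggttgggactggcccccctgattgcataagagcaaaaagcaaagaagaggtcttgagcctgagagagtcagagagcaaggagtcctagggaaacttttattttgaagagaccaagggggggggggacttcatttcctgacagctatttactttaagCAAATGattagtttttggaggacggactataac
Tcf21, chr10:22820094-22820393, minus strand: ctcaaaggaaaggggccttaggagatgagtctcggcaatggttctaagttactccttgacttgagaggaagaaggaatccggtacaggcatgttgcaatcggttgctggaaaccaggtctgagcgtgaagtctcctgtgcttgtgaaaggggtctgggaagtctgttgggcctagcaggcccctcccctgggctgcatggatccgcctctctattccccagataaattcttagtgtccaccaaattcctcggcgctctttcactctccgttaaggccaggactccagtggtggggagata
The Inmt region held CACCTG 138 bases and CAGCTG 14 bases before the start, and 2 copies of a 46-base stretch in direct succession. It also held TATAAA at 80 and 69 bases before the start, a motif added to the search after the sequence had been read. The Pdgfra region held CATCTG 182 bases before the start and CAAATG 18 bases into the transcript. The Tcf21 region held no CANNTG. Of 32851 mouse promoter windows of the same length, 72.3% held CANNTG on either strand, 16.3% held CAGCTG (a form of CANNTG) and 13.6% held TATAAA. Among the 10 RefSeq windows of the 7 members, GGGCGG was found in the first windows of Npnt, Limch1, Gdf10 and Fgfr4, and 35.7% of all windows held it. CANNTG was also found in every Limch1 window, in window 2 of Npnt and in the Fgfr4 window. Window 1 of Npnt and the Gdf10 window held none. Npnt and Fgfr4 were called in no comparison, so holding CANNTG did not set the called members apart. These matches describe letters and say nothing about binding.

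Inmt was the member called in most comparisons, 5 of 9. The gene lies on chromosome 6 at 55170626 to 55175043 (GRCm38, minus strand). In PG 826 lungs it had 1533, 1649 and 2054 CPM, in PG 1100 lungs 736, 810.05 and 1069 CPM, and in saline lungs 1758, 1943 and 1880.3 CPM. The PG 1100 lungs all lay below every PG 826 and saline lung, while the PG 826 and saline lungs overlapped. PG 1100 against saline gave a log2 fold change of -1.09 ± 0.14 (adjusted p = 2.18e-06, edgeR), and PG 1100 against PG 826 gave -1.001 ± 0.143 (adjusted p = 2.07e-05, edgeR). PG 826 against saline gave -0.09 ± 0.14, with a 95% interval of -0.38 to 0.20. In PG 1100 against saline Inmt was the 1 member called of 7, where 7.31% of all genes were called in either direction and 3.23% were called lower. In PG 1100 against PG 826 it was again 1 of 7, beside 5.55% of all genes, with 2.71% called lower. In that comparison 4 members (Inmt, Pdgfra, Limch1 and Fgfr4) had an unadjusted p below 0.05 (edgeR), beside 2615 of all 14727 genes. For PG 826 no member was called by edgeR, DESeq2 or limma-voom, none had an unadjusted p below 0.05, and 0.136% of all genes were called. The PG 1100 comparisons share their PG 1100 lungs, and both PG doses share the saline lungs.

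Along the VEA doses Inmt had 2013, 1831 and 1754 CPM in ethanol lungs, 1264, 1106 and 1070.5 CPM at 3.12, 1139, 876 and 1070.6 CPM at 6.25, and 901, 999.6 and 855 CPM at 12.5. Every VEA lung lay below every ethanol lung, and neighbouring doses overlapped. The log2 fold change against ethanol was -0.70 ± 0.14 at 3.12 (adjusted p = 0.00166), -0.86 ± 0.14 at 6.25 (adjusted p = 0.000137) and -1.02 ± 0.14 at 12.5 (adjusted p = 4.46e-06, edgeR), 3 comparisons that share the same ethanol lungs. These folds correspond to 0.615, 0.551 and 0.492 of the ethanol level. The slope over the 3 VEA doses was -0.03 ± 0.01 log2 units per unit of dose, with an unadjusted p of 0.0337 and an adjusted p of 0.74 (edgeR), so a further fall with dose was not called. In order of group means Inmt ran ethanol 1866, saline 1861, PG 826 1745, VEA 3.12 1147, VEA 6.25 1028, VEA 12.5 919 and PG 1100 872 CPM. The step from PG 826 to VEA 3.12 was the single place in this order where neighbouring groups did not overlap. Inmt remained called in these 5 comparisons under all 13 alternatives run for each, including leaving out each animal of the groups compared.

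**Figure D1:**
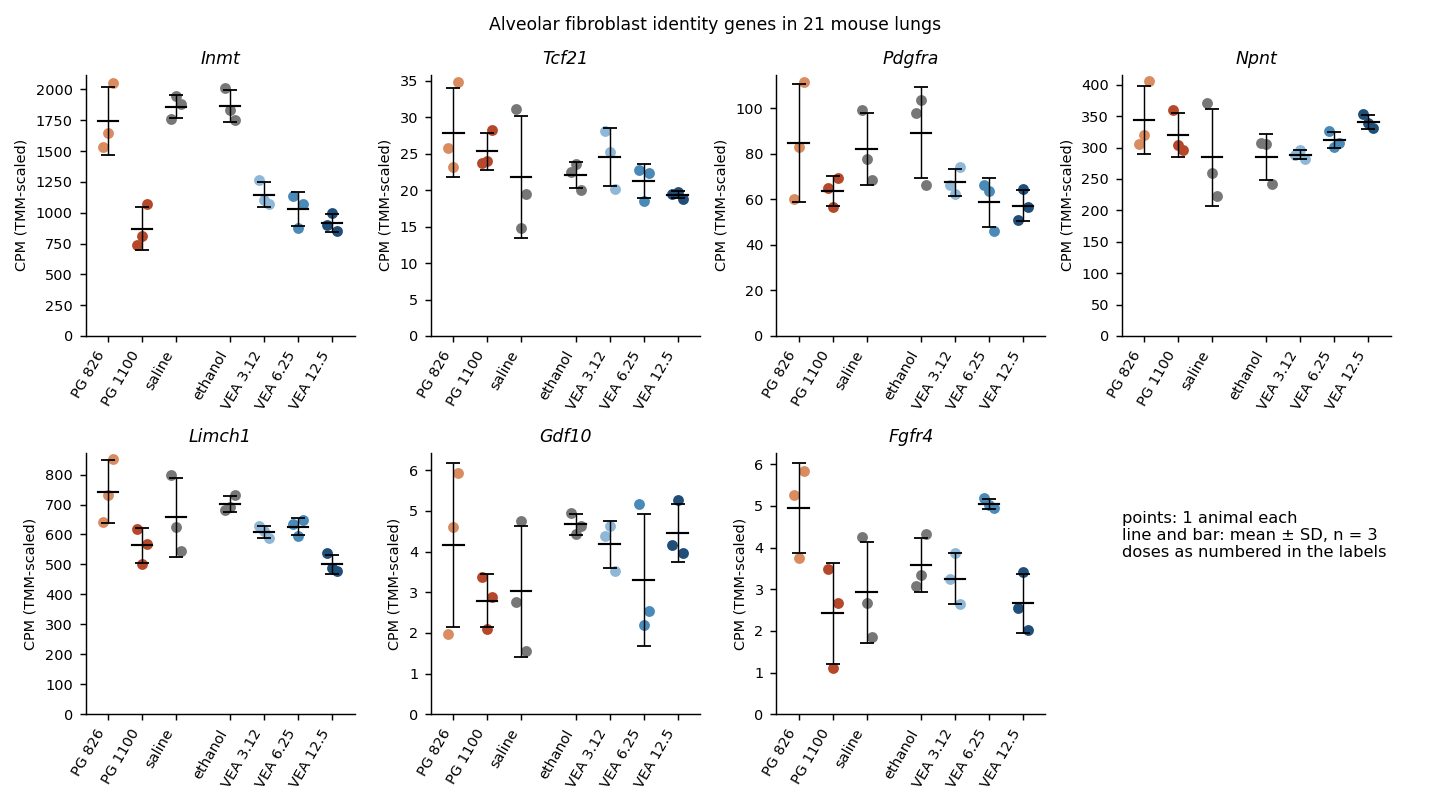
CPM of the 7 genes (vertical axes, each from 0) in every lung by group, with points for animals and bars for mean ± SD (n = 3). The PG 1100 and VEA points of Inmt lie below all its control points, while the points of Tcf21, Gdf10 and Fgfr4 overlap between most groups.

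Pdgfra, on chromosome 5 at 75152292 to 75198215, was the second member that fell. Along the VEA doses it had 97.8, 103.6 and 66.2 CPM in ethanol lungs, 66.2, 62.3 and 74.0 CPM at 3.12, 66.1, 63.5 and 46.3 CPM at 6.25, and 50.7, 64.3 and 56.4 CPM at 12.5. The lungs at 6.25 and 12.5 lay below all ethanol lungs, but ethanol animal 14 sat just above them and apart from the other two ethanol animals. The log2 fold change against ethanol was -0.61 ± 0.19 at 6.25 (adjusted p = 0.0488) and -0.64 ± 0.19 at 12.5 (adjusted p = 0.0216), and -0.40 ± 0.19 at 3.12 did not pass (adjusted p = 0.228, edgeR). With Inmt, this made 2 of 7 members called at VEA 6.25, where 5.76% of all genes were called and 2.25% called lower. At VEA 3.12 the count was 1 of 7, beside 5.51% of all genes, with 2.09% called lower.

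Both Pdgfra calls depended on single animals. At 6.25 the edgeR adjusted p was 0.170 without ethanol animal 12, 0.222 without ethanol animal 13, 0.0892 without VEA animal 64 and 0.258 without VEA animal 65. At 12.5 it was 0.0957 without ethanol animal 12, 0.132 without ethanol animal 13, 0.117 without VEA animal 66 and 0.0863 without VEA animal 70. The direction was down in each of these fits. Under PG, Pdgfra had 59.9, 82.9 and 111 CPM in PG 826 lungs, 64.8, 56.6 and 69.4 CPM in PG 1100 lungs, and 99.4, 77.7 and 68.6 CPM in saline lungs. The groups overlapped, and PG 1100 against saline gave -0.36 ± 0.19 with a 95% interval of -0.74 to 0.01 (adjusted p = 0.275, edgeR). PG 1100 against PG 826 gave -0.41 ± 0.19 (unadjusted p = 0.0329, adjusted p = 0.225, edgeR).

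Limch1, on chromosome 5 at 66745827 to 67057158, had 681, 691 and 733 CPM in ethanol lungs, 629, 610.2 and 587 CPM at VEA 3.12, 635, 594 and 648 CPM at 6.25, and 537, 489 and 477 CPM at 12.5. The VEA 12.5 lungs lay below every other VEA lung and every ethanol lung. The log2 fold change of VEA 12.5 against ethanol was -0.49 ± 0.13 (adjusted p = 0.0148, edgeR), or 0.714 of the ethanol level. The lungs at 3.12 and 6.25 also lay below the ethanol lungs, with -0.20 ± 0.13 and -0.17 ± 0.13 that were not called (adjusted p = 0.437 and 0.554, edgeR). At VEA 12.5 the members called were thus 3 of 7, all lower, where 9.71% of all genes were called and 4.23% were called lower. Whether called or not, 4 members (Inmt, Tcf21, Pdgfra and Limch1) lay wholly below the ethanol lungs at this dose and Npnt wholly above, beside 14.8% and 15.3% of all genes. Without ethanol animal 14 the Limch1 adjusted p was 0.0597, without VEA animal 68 it was 0.0758, and without VEA animal 70 it was 0.0893. Without VEA animal 70 Inmt was the 1 member called at this dose, and without any other 1 animal of these 2 groups 2 members were called.

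In PG 826 lungs Limch1 had 643, 732 and 853 CPM, in PG 1100 lungs 619, 503 and 568 CPM, and in saline lungs 799.8, 626 and 544 CPM. The PG 1100 lungs lay below the PG 826 lungs and overlapped the saline lungs. PG 1100 against PG 826 gave -0.40 ± 0.13 (adjusted p = 0.0762, edgeR), which passed with DESeq2 (adjusted p = 0.0312), without PG 826 animal 22 (0.0407) and without PG 1100 animal 27 (0.0328). PG 1100 against saline gave -0.22 ± 0.13, with a 95% interval of -0.49 to 0.05.

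Npnt, on chromosome 3 at 132881745 to 132950291, had its highest VEA levels at the top dose. It had 307, 306 and 243 CPM in ethanol lungs, 289, 296 and 282 CPM at 3.12, 327, 301 and 308 CPM at 6.25, and 353, 339.8 and 330.4 CPM at 12.5. The VEA 12.5 lungs lay above all ethanol lungs, and the VEA 6.25 lungs lay above all VEA 3.12 lungs. VEA 12.5 against ethanol gave 0.26 ± 0.15 with a 95% interval of -0.04 to 0.56, which was not called (adjusted p = 0.317, edgeR). Npnt had 305, 319.7 and 406 CPM in PG 826 lungs, 360.4, 305 and 296 CPM in PG 1100 lungs, and 371, 259.8 and 222 CPM in saline lungs. The saline lungs overlapped both PG groups, and PG 1100 against saline gave 0.17 ± 0.15.

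Tcf21, the transcription factor of the set, lies on chromosome 10 at 22817281 to 22820174. It had 25.7, 23.1 and 34.8 CPM in PG 826 lungs, 23.8, 24.0 and 28.3 CPM in PG 1100 lungs, and 31.1, 14.9 and 19.5 CPM in saline lungs. Along the VEA doses it had 22.5, 23.5 and 20.1 CPM in ethanol lungs, 28.1, 25.3 and 20.2 CPM at 3.12, 22.8, 18.5 and 22.4 CPM at 6.25, and 19.5, 19.7 and 18.8 CPM at 12.5. All neighbouring groups in the order of its means overlapped, and the VEA 12.5 lungs lay just below the ethanol lungs. PG 1100 against saline gave 0.21 ± 0.21 with a 95% interval of -0.22 to 0.65, and VEA 12.5 against ethanol gave -0.19 ± 0.21 with -0.62 to 0.25. The 95% interval of Tcf21 thus did not reach the Inmt fold change in the same lungs in either comparison. Tcf21 lies wholly within the antisense gene Gm10824, which is not a symbol of the count tables. The strand setting of the counting is not given in the sources used here, so reads of the 2 genes cannot be told apart.

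Gdf10 and Fgfr4 were near the limit of what these libraries resolve, with 16 to 65 counts per lung for Gdf10 and 10 to 56 for Fgfr4. Gdf10, on chromosome 14 at 33923587 to 33937983, averaged 4.17 ± 2.02 CPM in PG 826, 2.79 ± 0.64 CPM in PG 1100 and 3.02 ± 1.61 CPM in saline lungs (SD, n = 3 each). It averaged 4.67 ± 0.26 CPM in ethanol lungs, 4.18 ± 0.57 CPM at VEA 3.12, 3.30 ± 1.63 CPM at 6.25 and 4.47 ± 0.71 CPM at 12.5. The group ranges overlapped in every dose comparison of Gdf10. Fgfr4, on chromosome 13 at 55152640 to 55168759, averaged 4.94 ± 1.08 CPM in PG 826, 2.42 ± 1.21 CPM in PG 1100 and 2.92 ± 1.22 CPM in saline lungs. It averaged 3.58 ± 0.65 CPM in ethanol lungs, 3.25 ± 0.61 CPM at VEA 3.12, 5.05 ± 0.12 CPM at 6.25 and 2.66 ± 0.70 CPM at 12.5. The VEA 6.25 lungs lay above all lungs of the other VEA doses and of ethanol for Fgfr4, with 0.49 ± 0.45 against ethanol, and PG 1100 lay below PG 826 with -1.02 ± 0.46 (adjusted p = 0.612 and 0.226, edgeR). Their 95% intervals against the controls were wide, for example -0.98 to 0.85 for Gdf10 and -1.35 to 0.50 for Fgfr4 at VEA 12.5, so a change of the size of that of Inmt lay inside the Fgfr4 interval and just outside the Gdf10 interval.

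**Figure D2:**
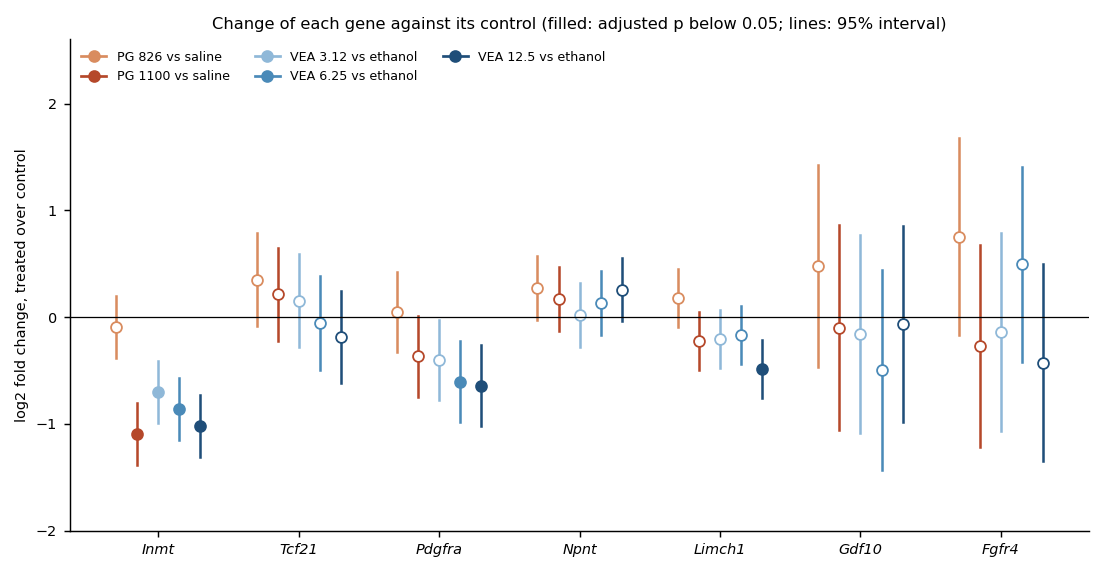
Log2 fold change over control (vertical axis) of each gene for the 5 dose groups, with 95% intervals as lines and filled points where the adjusted p was below 0.05. Filled points are those of Inmt for PG 1100 and all VEA doses, Pdgfra for VEA 6.25 and 12.5 and Limch1 for VEA 12.5, all below 0.

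The control groups did not differ detectably in the members. In 10% ethanol against saline no member was called by edgeR, DESeq2 or limma-voom and none had an unadjusted p below 0.05, with adjusted p of 0.913 to 0.999 (edgeR), and 0% of all genes were called. The difference between the VEA 12.5 effect and the PG 1100 effect, each against its own control, was also called for no member by the same tools (adjusted p of 0.819 to 1.00, edgeR), beside 0.19% of all genes. For Inmt this difference was 0.07 ± 0.20, with a 95% interval of -0.34 to 0.48. For the slope over VEA doses 0 members and 0% of all genes were called by edgeR, 2 members (Inmt and Limch1) had an unadjusted p below 0.05, and DESeq2 and limma-voom called 0 members.

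Within each lung, the log2 CPM of Inmt was set against that of Tcf21, which takes out whatever scaled both alike. This difference averaged 5.97 (5.88 to 6.14) in PG 826 lungs, 5.08 (4.94 to 5.23) in PG 1100 lungs and 6.47 (5.81 to 7.01) in saline lungs. It averaged 6.39 (6.27 to 6.47) in ethanol lungs, 5.55 (5.44 to 5.71) at VEA 3.12, 5.58 (5.55 to 5.63) at 6.25 and 5.55 (5.49 to 5.65) at 12.5. The PG 1100 and VEA lungs thus had less Inmt per Tcf21 than every lung of their control group. This restates the Inmt and Tcf21 levels given above and is not a separate test. For Npnt the same difference was 4.12 (4.09 to 4.16) at VEA 12.5 and 3.68 (3.58 to 3.76) in ethanol lungs, without overlap and in the opposite direction. Tcf21 itself had 122 to 315 counts per saline lung, and its reads cannot be told apart from those of the antisense gene Gm10824.

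**Figure D3:**
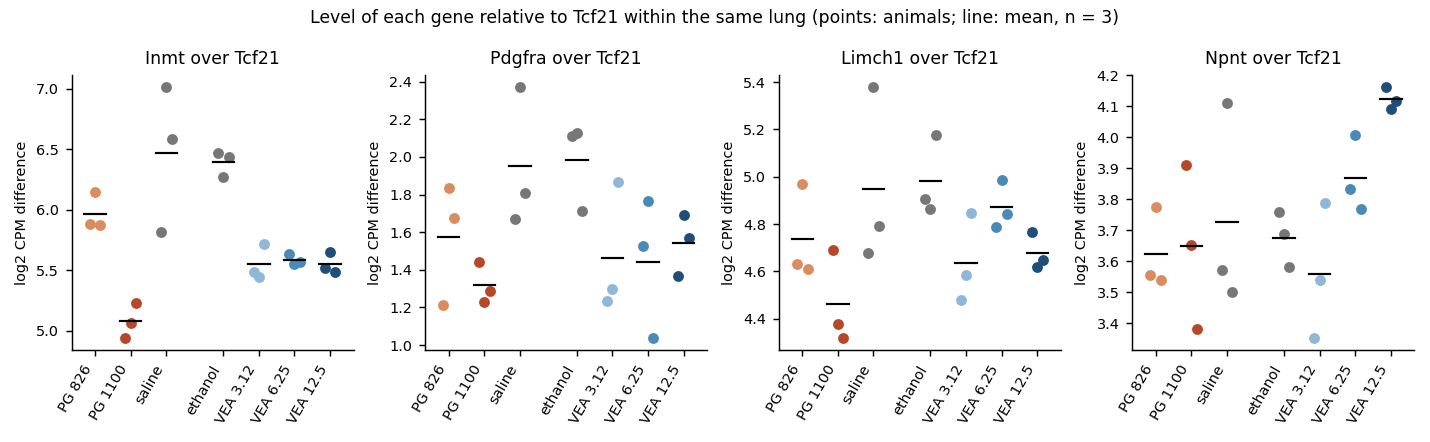
Log2 CPM of Inmt, Pdgfra, Limch1 and Npnt minus that of Tcf21 in the same lung (vertical axes), with points for animals and lines for group means (n = 3). Inmt over Tcf21 is 4.94 to 5.23 in PG 1100 lungs and 5.44 to 5.71 in VEA lungs, below the saline and ethanol points, while Npnt over Tcf21 is highest at VEA 12.5.

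Other genes of the alveolar fibroblast were read from a list of 19, of which 18 were in the tables and tested. With all animals none was called higher in any dose comparison. At PG 1100 against saline 2 of 18 were called lower, with a list median of -0.04 beside 0.01 for all genes. At VEA 3.12 and 6.25 3 of 18 were called lower, with medians of -0.40 and -0.26, and at VEA 12.5 4 of 18 with a median of -0.34, beside medians of all genes between -0.01 and 0.00. Of all genes, 3.23% were called lower at PG 1100, 2.09%, 2.25% and 4.23% at VEA 3.12, 6.25 and 12.5, and 2.71% in PG 1100 against PG 826. The same shares stand beside the counts called lower in the lists below. At PG 1100 against PG 826 2 of 18 were called lower, and at PG 826 none was (3 with an unadjusted p below 0.05, and 0 by DESeq2 and limma-voom). Leaving out 1 animal took the count to 1 at VEA 3.12 without VEA animal 57, to 1 at VEA 6.25 without VEA animal 65, to 2 at VEA 12.5 without VEA animal 70, to 1 at PG 826 without saline animal 6 (Spon1, an extracellular matrix protein, called higher), and, for PG 1100 against PG 826, to 0 without PG 826 animal 25 and 1 without PG 826 animal 22 or PG 1100 animal 28.

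G0s2, which encodes an inhibitor of the triglyceride lipase of lipid droplets, fell the most of the called genes of this list at PG 1100 and at VEA 12.5. It had 37.8, 33.1 and 32.8 CPM in PG 1100 lungs and 65.0, 78.6 and 82.8 CPM in saline lungs, a log2 fold change of -1.13 ± 0.16 (adjusted p = 4.75e-06, edgeR). At VEA 12.5 it had 37.4, 43.1 and 34.5 CPM, against 69.6, 94.5 and 90.5 CPM in ethanol lungs, or -1.15 ± 0.15 (adjusted p = 2.24e-06, edgeR). Neither pair of groups overlapped. Ces1d, a carboxylesterase, fell by 0.61 ± 0.13 on the log2 scale at PG 1100 and by 0.74 ± 0.13 at VEA 12.5 (adjusted p = 0.00188 and 0.000151, edgeR), but it belongs to a family of close copies between which reads may be split, so its values are uncertain. Itga8, the integrin partner of nephronectin, fell by 0.85 ± 0.20 at VEA 12.5 (adjusted p = 0.00374, edgeR), while PG 1100 against saline gave 0.03 ± 0.20. Bmp3, the closest relative of Gdf10, fell by 1.08 ± 0.28 at VEA 12.5 (adjusted p = 0.0092, edgeR). At VEA 12.5 Itga8 had 31.4, 22.3 and 19.7 CPM, against 53.9, 39.8 and 38.4 CPM in ethanol lungs. The ligand Npnt and its integrin subunit Itga8 therefore stood on opposite sides of the ethanol lungs, the ligand without passing the test.

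The remaining partners of the members were read by role. Of 5 tested PDGF ligands and receptors, Pdgfra included, Pdgfra alone was called, lower, at VEA 6.25 and 12.5. Its ligand Pdgfa was thus called at no dose. At PG 1100, where Pdgfra was not called either, Pdgfa had 77.1 ± 3.90 CPM, against 76.2 ± 4.37 CPM in saline lungs. Of 9 FGF ligands and receptors other than Fgfr4, 2 were called lower at PG 1100 (Fgf1 and Fgfr3), 1 at VEA 3.12 and 6.25 (Fgf1) and 2 at VEA 12.5 (Fgf1 and Fgf7). Fgf1 had 107, 99.1 and 84.0 CPM in VEA 12.5 lungs, against 162, 164 and 157 CPM in ethanol lungs, a log2 fold change of -0.74 ± 0.13 (adjusted p = 0.000124, edgeR). Of 14 genes of GDF10 and TGF-beta signalling other than Gdf10, Tgfb3 and Tgfbr2 were called higher and Tgfbr3 and Smad6 lower at PG 1100, and Bmp3 alone lower at VEA 12.5. None of 6 tested TCF21 partners and relatives other than Tcf21, basic helix-loop-helix genes such as Tcf3, Tcf4 and Tcf12, was called in any dose comparison. Of 5 INMT relatives and methyl donor enzymes other than Inmt, Mat2a, which makes the methyl donor S-adenosylmethionine, was called with Inmt at VEA 12.5 (-0.49 ± 0.13, adjusted p = 0.00942, edgeR), and Nnmt, a related methyltransferase, was called higher in PG 1100 against PG 826.

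Lipid storage genes of the lipofibroblast were read from a list of 8, which does not hold G0s2, and none of the 8 was called lower. Plin2, a lipid droplet coat protein, and Lpl, lipoprotein lipase, were called higher at PG 1100, Plin2 and Fabp5, a fatty acid binding protein, at VEA 3.12, none at VEA 6.25, and Plin2, Fabp5 and Thy1, a surface glycoprotein, at VEA 12.5. The list median was 0.43 at PG 1100, 0.26 at VEA 3.12, 0.15 at 6.25 and 0.25 at 12.5. Plin2 averaged 153 ± 24.4 CPM at VEA 12.5 and 98.8 ± 5.70 CPM in ethanol lungs. Plin2, Lpl and Fabp5 are also expressed by macrophages, whose 10 genes were called higher in 8 cases at PG 1100, 6 each at VEA 3.12 and 6.25 and 9 at VEA 12.5. The summed macrophage level was 4013 to 6762 CPM at PG 1100 and 1876 to 3301 CPM in saline lungs, and 3814 to 3983 CPM at VEA 12.5 and 2444 to 2768 CPM in ethanol lungs. The part of macrophages in these lipid genes was not tested.

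Some genes of activated, matrix-producing fibroblasts were called higher at every dose, PG 826 included, where Inmt was not called. Of 15 tested, 2 were called higher at PG 826 (Col1a1 and Lox), 11 at PG 1100, 5 at VEA 3.12, 9 at VEA 6.25 and 10 at VEA 12.5, and none was called lower. Their median log2 fold change was 0.36 at PG 826, 1.51 at PG 1100, and 0.49, 0.73 and 0.99 at VEA 3.12, 6.25 and 12.5. Of all genes, 0.136%, 7.31%, 5.51%, 5.76% and 9.71% were called in either direction in these 5 comparisons, in the same order. Cthrc1 and Postn, which head this list, were called in no dose comparison. Col1a1, a chain of type I collagen, had 147, 139 and 168 CPM in PG 826 lungs, 415, 279 and 267 CPM in PG 1100 lungs and 113, 64.6 and 59.2 CPM in saline lungs. PG 1100 against saline gave 2.02 ± 0.20 for Col1a1 (adjusted p = 2.02e-07, edgeR), and 1.03 ± 0.20 was found at VEA 12.5 against ethanol (adjusted p = 0.000818, edgeR). Tnc, the matrix glycoprotein tenascin C, rose by 3.73 ± 0.40 at PG 1100 and 1.58 ± 0.38 at VEA 12.5 (adjusted p = 9.74e-07 and 0.00772, edgeR). The PG 826 count was 0 without saline animal 8 or 10 or PG 826 animal 23 or 25, 1 without PG 826 animal 22 and 4 without saline animal 6. At VEA 3.12 it was 3 without ethanol animal 12 or VEA animal 56 and 2 without ethanol animal 14 or VEA animal 59. At VEA 6.25 it was 5 without any 1 ethanol animal and 4 without VEA animal 64. The part of other cells, such as the macrophages whose genes also rose, in these activated genes was not tested.

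Of the other mesenchymal lists, the adventitial, the myofibroblast and the pericyte and smooth muscle lists had called genes in both directions. The mesothelial list had genes called lower alone. In the myofibroblast list and the pericyte and smooth muscle list, genes were called higher under PG and lower under VEA. Of 11 adventitial fibroblast genes, 5 were called higher at PG 1100 (Mfap5, Col14a1, Dpt, Cd34 and Il33), 1 at VEA 6.25 (Dpt), and Dcn and Gsn were called lower at VEA 12.5. Of 7 alveolar and ductal myofibroblast genes, Aspn was called higher at PG 1100 and Acta2 lower at VEA 12.5. Of 9 pericyte and smooth muscle genes, Cspg4 and Higd1b were called higher at PG 1100, and Myh11 at VEA 6.25 and Myh11 and Des at VEA 12.5 were called lower. Of 5 mesothelial genes, Upk3b, Lrrn4 and Gpm6a were called lower at VEA 12.5. In PG 1100 against PG 826 the adventitial genes Mfap5, Cd34 and Il33 were called higher and Gsn lower. The summed adventitial level was 1992 to 2361 CPM at PG 1100 and 2234 to 2524 CPM in saline lungs, so the sum did not rise with the 5 calls. It was 1777 to 2217 CPM at VEA 12.5 and 2514 to 2691 CPM in ethanol lungs. The summed myofibroblast level was 632 to 856 CPM at PG 1100, 404 to 525 CPM in saline lungs, 279 to 331 CPM at VEA 12.5 and 318 to 606 CPM in ethanol lungs. The part of these cells in the fall of Pdgfra was not tested.

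**Figure D4:**
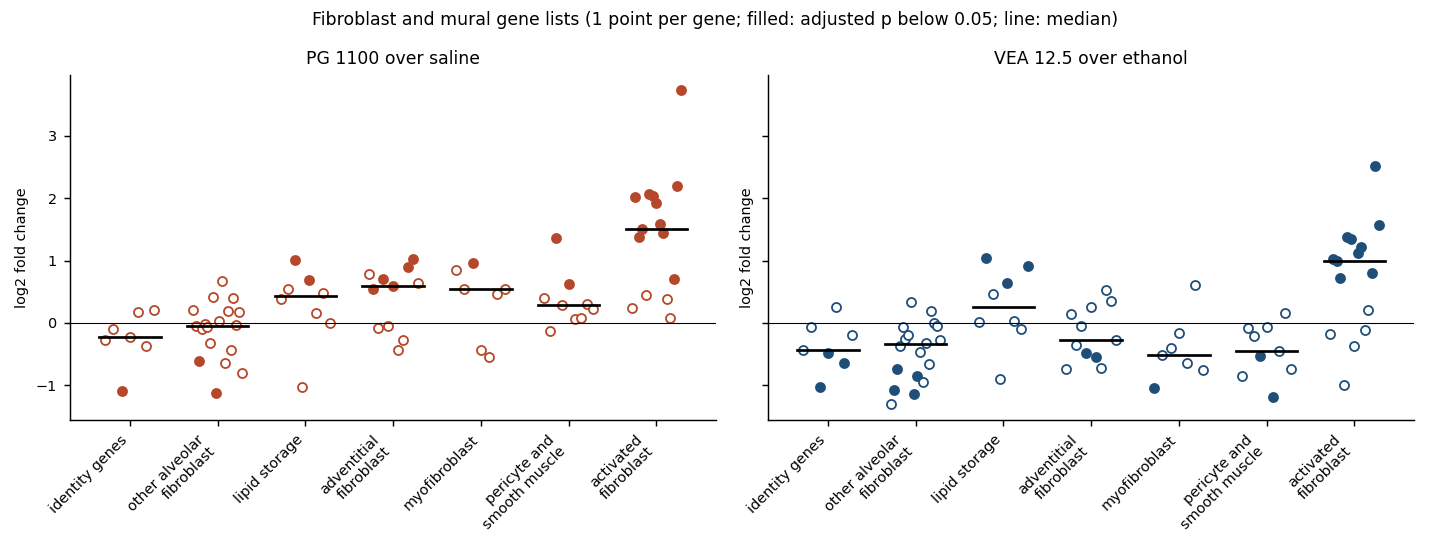
Log2 fold change (vertical axis) of each tested gene in 7 fibroblast and mural lists for PG 1100 over saline and VEA 12.5 over ethanol, with points for genes, filled where the adjusted p was below 0.05, and lines for medians. The activated list has medians of 1.51 and 0.99, while the identity genes have medians of -0.22 and -0.43.

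Markers of other lung cells, among them type I and endothelial cells known to express some of the members, also moved in these lungs. Of all genes, 3.23% were called lower at PG 1100 and 2.09%, 2.25% and 4.23% at VEA 3.12, 6.25 and 12.5. Of 9 type I cell genes, Hopx was called lower at PG 1100, Hopx and Cldn18 at VEA 3.12, Hopx at VEA 6.25, and Hopx, Rtkn2, Akap5 and Cldn18 at VEA 12.5. The summed type I level was 6307 to 6996 CPM at PG 1100 and 6781 to 7756 CPM in saline lungs, and 5967 to 6031 CPM at VEA 12.5 and 6834 to 7554 CPM in ethanol lungs. Ager, the defining type I gene, averaged 2735 ± 70.02 CPM at VEA 12.5 and 2598 ± 206 CPM in ethanol lungs. Of 10 endothelial genes, 8 were called lower at PG 1100 and 4 at each VEA dose (Kdr, Pecam1, Tek and Calcrl), with a summed level of 1422 to 1822 CPM at PG 1100 and 2329 to 2824 CPM in saline lungs, and of 1735 to 1947 CPM at VEA 12.5 and 2396 to 2661 CPM in ethanol lungs. Of 6 airway epithelial genes, 4 were called lower at PG 1100 and 5 at VEA 12.5, with a summed level of 22262 to 31404 CPM at PG 1100 and 51402 to 67830 CPM in saline lungs, and of 26518 to 28303 CPM at VEA 12.5 and 49377 to 67727 CPM in ethanol lungs. Of 8 type II cell genes, 4 were called higher at PG 1100 (Sftpb, Sftpd, Lamp3 and Slc34a2), 2 at VEA 3.12 (Sftpd and Lamp3), 1 at VEA 6.25 (Sftpd) and 3 at VEA 12.5 (Sftpd, Lamp3 and Slc34a2), and 5 were called higher in PG 1100 against PG 826. The summed type II level was 34326 to 53044 CPM at PG 1100 and 26971 to 37166 CPM in saline lungs, and 26890 to 29306 CPM at VEA 12.5 and 25692 to 30324 CPM in ethanol lungs. No type I, type II, endothelial, airway or macrophage gene of these lists was at 0 in any library. The part of these cells in the falls of Limch1, Pdgfra and Inmt was not tested.

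The genes whose levels ran most like the members over the 21 lungs were found by the root mean square difference of centred log2 CPM among 10112 genes of at least 5 CPM. Nearest to the mean profile of the 7 were Ptprm (0.120), Wipf2 (0.130), Tmcc3 (0.133), Slco3a1 (0.135) and Epn2 (0.147). The median gene had 0.374, and a flat profile, the same in every lung, would have 0.236. Nearest to Inmt were Tspan13 (0.168) and Fmo2 (0.192), beside a median of 0.559 and 0.479 for a flat profile. Fmo2, a flavin monooxygenase, had 127 ± 25.0 CPM at PG 1100 and 261 ± 19.9 CPM in saline lungs, and 123 ± 15.7 CPM at VEA 12.5 and 246 ± 41.4 CPM in ethanol lungs. Nearest to Pdgfra were Macf1 (0.179) and Smurf2 (0.196), to Limch1 Wwtr1 (0.116) and Tns3 (0.117), to Npnt Ddb1 (0.140) and Ppp3r1 (0.141), and to Tcf21 Ahsa2 (0.188) and Ap1g1 (0.189). A flat profile would stand 0.327 from Pdgfra, 0.215 from Limch1, 0.195 from Npnt and 0.272 from Tcf21. For the low-count members the nearest genes stood farther off, with Flywch1 (0.336) and Cpsf6 (0.346) for Gdf10 and Sema3f (0.338) and Sox13 (0.340) for Fgfr4. These members also varied more than the others, and a flat profile would stand 0.498 from Gdf10 and 0.526 from Fgfr4.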

How the data were processed

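RNA was measured in 21 mouse lungs with Lexogen QuantSeq 3′ libraries, per the labels' protocols. Bowtie2, bedtools and the assembly mm10 are named, per the submitters' processing notes, and the annotation and strand setting of the counting are not given in the sources used here. The deposited files hold whole-number counts per gene symbol, 1 file per library, with 23282 rows and 23238 symbols, and counts of 35 repeated symbols were summed here. Positions came from GENCODE release M21 for GRCm38 and start regions from RefSeq on GRCm38.p6, with all 7 members matched. 

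Counts were filtered with filterByExpr, scaled by TMM and fitted in edgeR 4.0.16 (R 4.3.3) with robust quasi-likelihood over all 7 groups, 14 residual degrees of freedom, and Benjamini-Hochberg adjustment over 14727 genes in each of 9 comparisons. Samples were grouped by the treatment label. The 95% intervals are for the fold change of each gene alone. Log2 CPM for profiles used a prior count of 2. In these libraries 5 CPM equals 41.1 to 64.8 counts. Animals of 1 group, numbered separately in the labels, differed beyond counting error (chi-square per degree of freedom 8.14 to 40.5). Results were recomputed with limma-voom (limma 3.58.1), DESeq2 1.42.0, RLE scaling, every gene kept, a fit to the compared groups alone, ranks of dose for the slope, leaving out each animal in turn and, added after seeing the data, leaving out 3 libraries or Rn45s and haemoglobin genes, and running these alternatives for Acta2. In simulated data of PG 1100 against saline with 14727 genes, edgeR found 23.4% of 1.5-fold, 55% of 2-fold and 93.7% of 4-fold changes. Of its calls, 3.51% were false. The changed genes numbered 77, 60 and 63 and were drawn from genes above a minimum mean count. Every gene took its spread from the trend with level. The shares hold for that setting and were not computed for genes as low as Gdf10 and Fgfr4 alone.

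The 7 members, the gene lists and the rules for naming genes were chosen with earlier results of these data known. All members were named. Per list, up to 6 genes called in most of the 6 comparisons between doses or of a dose with its control were named, along with first markers of a list, the 5 genes nearest to the mean profile and the 2 nearest to each member; Pdgfa, Tcf3, Tcf4, Tcf12, Col14a1, Spon1 and genes that passed under an alternative alone were named outside this rule after their values were seen.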

Additional observations from a re-analysis of the deposited data

Results flagged for a closer look

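Acta2, the smooth muscle actin of myofibroblasts, was called by edgeR in a test of the difference between the agents, the 1 gene called there among the fibroblast and mural lists with all animals. The VEA 12.5 effect minus the PG 1100 effect was -1.90 ± 0.37 on the log2 scale (adjusted p = 0.0468, edgeR). Acta2 had 148, 145 and 109.7 CPM in VEA 12.5 lungs, against 347, 339 and 147 CPM in ethanol lungs. It had 521, 379 and 492 CPM in PG 1100 lungs, against 295, 197 and 281 CPM in saline lungs. Ethanol animal 14 was within the VEA range. By itself the VEA 12.5 effect was called and the PG 1100 effect was not (-1.05 ± 0.27 and 0.85 ± 0.26, adjusted p = 0.0164 and 0.0603, edgeR). No member of the identity genes was called for this difference.

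The Acta2 call was weak. It was made in 7 of 19 alternatives, all of which kept the direction (-2.20 to -1.56, adjusted p 5.24e-16 to 0.196). DESeq2 and limma-voom called it (adjusted p = 0.00144 and 0.00882), as did the fits without ethanol animal 14 (4.35e-06) or PG 1100 animal 28 (0.0417). It was lost with only the groups compared (0.104), without the 3 libraries with the fewest genes (0.196) and without any other 1 animal (0.0702 to 0.140). Other genes of these lists passed under some settings: Tnc with DESeq2; Tnc, Col1a1, Fst, Aspn, Tagln, Cnn1 and Myh11 with no filter; Tnc, Col1a1 and Itga8 without saline animal 6; Tagln without ethanol animal 14; Fabp5 without PG 1100 animal 28; and Aspn without the 3 libraries.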

How the results depend on the processing

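Limits are set by 3 animals per group, by 10 to 65 counts per lung for Gdf10 and Fgfr4, and by 3′ reads whose strand setting is not given. No paired analysis was possible because the animal numbers are not shared between groups. RLE scaling, no filter, only the groups compared, and leaving out Rn45s and haemoglobin genes changed no count of members called. DESeq2 called 2 members for PG 1100 against PG 826 (edgeR 1). For VEA 6.25 (edgeR 2), limma-voom and leaving out the 3 libraries with the fewest genes (saline animal 8, ethanol animal 13, VEA 6.25 animal 65) called 1, and at VEA 12.5 (edgeR 3) the fit without these libraries called 2. Leaving out 1 animal gave 1 to 2 members for PG 1100 against PG 826, VEA 6.25 and VEA 12.5. Pdgfra at VEA 6.25 was called in 7 of 13 alternatives (adjusted p 0.00535 to 0.543), Pdgfra at VEA 12.5 in 8 of 13 (0.00152 to 0.132) and Limch1 at VEA 12.5 in 10 of 13 (0.00053 to 0.0893).

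Signs turned for values that passed no test. Gdf10 at PG 1100 was 0.081 with limma-voom, 0.38 without the 3 libraries and -0.41 to 0.37 without 1 animal. Without 1 animal, Fgfr4 at PG 1100 was -0.63 to 0.11, Pdgfra at PG 826 -0.19 to 0.25, Npnt at VEA 3.12 -0.085 to 0.074, Fgfr4 at VEA 3.12 -0.28 to 0.019, Tcf21 at VEA 6.25 -0.12 to 0.035, Gdf10 at VEA 12.5 -0.19 to 0.025, and for PG 1100 against PG 826 Tcf21 was -0.26 to 0.053 and Npnt -0.19 to 0.037. The Inmt difference between agents was -0.028 to 0.24. The cause of these changes was not tested.

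Counts over all genes moved more. PG 826 had 20 calls with edgeR, 73 with DESeq2, 162 with no filter, 6 without the 3 libraries and 5 to 120 without 1 animal. PG 1100 had 1077, but 444 with only its groups and 547 to 1207 without 1 animal. PG 1100 against PG 826 had 818, then 425 and 259 to 1458. VEA 3.12, 6.25 and 12.5 had 812, 849 and 1430 calls, with 434 to 621, 427 to 811 and 873 to 1090 without 1 animal, and 539 at 3.12 and 316 at 6.25 without the 3 libraries. The difference between agents had 28 calls, then 103 with DESeq2, 13 with limma-voom, 198 with no filter, 14 with only its groups and 12 without the 3 libraries. The VEA slope had 0, then 14, 9, 84 and 34 in the same order of settings, and ethanol against saline 0, then 1 with DESeq2 and 17 with no filter.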

Other observations

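PG 826 animal 25 had the highest CPM of all 21 lungs in each of the 7 identity genes, 2054 for Inmt, 34.8 for Tcf21, 111 for Pdgfra, 406 for Npnt, 853 for Limch1, 5.94 for Gdf10 and 5.83 for Fgfr4. The same lung was highest in 617 of the 14727 genes tested, 4.19%, and in 3 of the 18 other alveolar fibroblast genes. This was seen after looking at the values and was not tested. Without this animal the log2 fold change of Pdgfra at PG 826 against saline was -0.19, where it was 0.05 with all animals.

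The saline group also varied between animals, with 5 of the 7 genes highest in the same saline lung. Saline animal 6 was the highest saline lung for Tcf21, Pdgfra, Npnt, Limch1 and Fgfr4 and the lowest for Inmt, with 31.1, 99.4, 371, 799.8, 4.24 and 1758 CPM.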
